A study of Mus musculus with 6 samples.

Results

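Rab GTPases are small G proteins that mark the membranes of the secretory and endocytic pathways. Each switches between a GTP-bound form, which sits on a membrane and recruits effector proteins, and a GDP-bound form, which GDP dissociation inhibitors extract into the cytosol. Exchange factors turn a Rab on and GTPase activating proteins turn it off. In neuroendocrine cells such as the chromaffin cells of the adrenal medulla, which store adrenaline and noradrenaline in granules, Rab3 and Rab27 proteins lie on secretory granules and take part in their docking and release. The genes described here are those whose symbol on the array is Rab, then a number, then optional letters. There were 59 such genes among 18193 that a probe set names without ambiguity, read by 132 of the 45037 probe sets that are not array controls. A probe set is a group of short probes that mostly lies near the 3′ end of a transcript, and a gene can have several. The symbols Rab3ip, Rab5if, Rab10os and Rab26os also match the pattern and were left out because they name partner proteins or antisense RNAs.

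The TAC group was adrenal medulla from 3 male C57/Bl6 mice 8 weeks after transverse aortic constriction (TAC), an operation that narrows the aortic arch and raises the pressure the heart works against. The sham group was adrenal medulla from 3 male C57/Bl6 mice 8 weeks after a sham operation. Both groups went through the same microdissection of 12 µm cryosections and the same amplification in 2 cycles, and each array held the RNA of a single animal, taken from its left and right medulla together, per the labels' protocols. The age of the mice is not given in the sources used here. Such tissue is a mixture of cells, so fewer cells of a type and less RNA per cell cannot be told apart. All values are log2 intensities, differences are TAC minus sham on that scale with the standard error (SE) of the limma fit, and n = 3 arrays per group throughout. Adjusted p-values come from limma with Benjamini-Hochberg adjustment over all 18188 tested probe sets, with a threshold of 0.05. The 95% intervals come from the same fit for each probe set alone and are not adjusted.

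Chromaffin cell markers were abundant on every array. The mean of their 11 tested genes of 11 on the array lay between 12.14 and 12.94 on the TAC arrays and between 12.32 and 12.80 on the sham arrays (median difference 0.03). Adrenal cortex markers (7 of 10 tested) varied more within groups than between them, with the log2 of their summed intensity from 11.33 to 13.18 after TAC and from 10.63 to 14.00 after sham. Their median difference was -0.70. For fibroblast markers (7 of 8 tested, 6 lower, median -1.40) that sum ran from 9.33 to 10.78 after TAC and from 10.75 to 12.11 after sham. For macrophage markers (5 of 8 tested, 2 higher and 3 lower, median -0.13) the sums did not overlap, at 11.80 to 12.51 after TAC and 11.11 to 11.72 after sham. The sums of sustentacular and Schwann cell markers (5 of 6 higher, median 0.79) did not overlap either, at 11.80 to 12.11 after TAC and 11.13 to 11.51 after sham. The sums of endothelial markers (4 of 8 tested) ran from 8.85 to 9.61 after TAC and from 8.78 to 9.22 after sham. By the mean of a list, as given for chromaffin cells, the groups did overlap. Macrophage means ran from 7.01 to 8.56 after TAC and from 6.73 to 8.23 after sham. Those of sustentacular and Schwann cells ran from 7.17 to 8.38 after TAC and from 7.05 to 7.69 after sham. Of ganglion neuron markers 5 of 8 lay lower (median -0.48), with 0 of all marker genes past the threshold. The part of any of these cell types in the Rab values was not tested. The endothelial markers Cdh5, Kdr, Pecam1 and Tie1 and the macrophage markers Aif1, C1qc and Cd68 stayed below the filter on low values. The median tested probe set read 6.50, 7.01 and 6.68 on TAC arrays 1 to 3 and 6.31, 6.89 and 6.91 on sham arrays 1 to 3, so unscaled levels carry shifts of whole arrays. The arrays differed in 3′ bias, as read from the Gapdh control. The gap between the 3′ and the 5′ probe set of the Gapdh control, larger where transcripts are shortened, was 4.71, 3.67 and 3.98 on TAC arrays 1 to 3 and 5.15, 3.08 and 2.88 on sham arrays 1 to 3.

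The measured Rab genes covered every step of membrane traffic. Probe sets with a log2 intensity of at least 4 on at least 3 of the 6 arrays were tested, which kept 87 Rab probe sets of 46 genes. Of the 132 probe sets, 79 reached log2 4 on all 6 arrays and 41 on none. The 13 genes with no tested probe set were Rab5b, Rab7b, Rab17, Rab19, Rab20, Rab25, Rab26, Rab27b, Rab29, Rab32, Rab37, Rab43 and Rab44, and their highest reading on any array was 4.503. Of these, Rab26, Rab27b and Rab37 are known from secretory granules of other cells. All 4 probe sets of Rab27b stayed below log2 4 on all 6 arrays.

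The comparison of TAC with sham asks which Rab genes of the medulla respond to a pressure-loaded heart, and none of the 87 probe sets passed the threshold. By limma, 0 Rab probe sets were called, with a smallest adjusted p of 0.384, against 0% of all tested probe sets. At an unadjusted p under 0.05 there were 6 Rab probe sets, or 6.90%, against 6.94% of all tested probe sets. Of the 6, 3 lay higher and 3 lower after TAC, against backgrounds of 4.65% and 2.29%. The split was 3 higher and 6 lower with arrays centred on their medians or after cyclic loess, and 4 higher and 5 lower after quantile normalization, in each case 10.3% of Rab probe sets, against 7.48%, 7.91% and 7.93% of all with centring, cyclic loess and quantile normalization. Without sham 1 it was 2 higher and 12 lower, or 16.1% of Rab probe sets against 13.4% of all. The groups did not overlap at 9 Rab probe sets, or 10.3%, against 13.0% of all tested. Of the 9, 5 lay higher and 4 lower after TAC, against backgrounds of 9.01% and 4.01%. After each of the 3 other scalings 17 did not overlap, or 19.5%, against 14.0% to 14.9% of all, and without sham 1 it was 31, or 35.6%, against 36.7% of all.

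Over the family the differences lay on both sides of 0. With the probe set of the highest mean over the 6 arrays (the lead probe set) standing for each gene, 26 Rab genes were above and 20 below 0, a share of 56.5% above, against 58.7% of all 10181 tested genes. The median difference was 0.06 for Rab genes and 0.09 for all genes. The interquartile range ran from -0.30 to 0.38 for Rab genes and from -0.20 to 0.37 for all genes. The Rab median was -0.03 after cyclic loess, and single arrays moved it and the median of all genes further. It was 0.33 for Rab genes and 0.21 for all genes without TAC 1, 0.22 and 0.19 without sham 2, -0.16 and -0.04 without TAC 2, -0.17 and -0.07 without sham 1, and -0.06 and 0.10 without TAC 3. The SE of a difference was 0.45 for the median Rab probe set, with a range from 0.20 to 1.04.

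**Figure D1:**
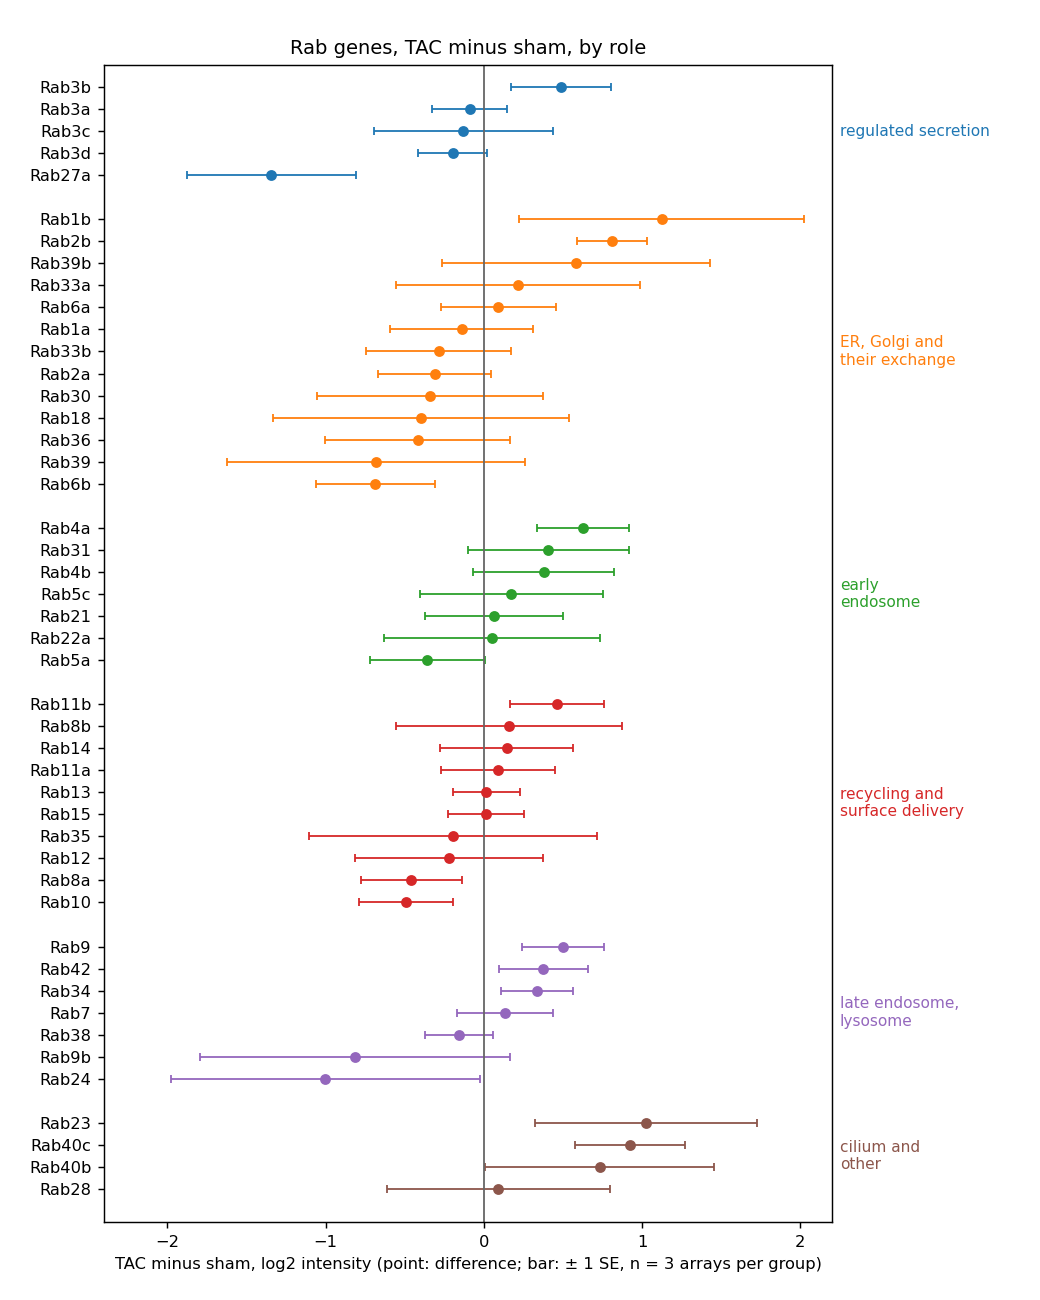
Difference of TAC minus sham in log2 intensity (x axis) for the 46 tested Rab genes, grouped by role, with points for the difference and bars for ± 1 SE (n = 3 arrays per group). Genes of most roles lie on both sides of 0, with Rab27a lowest at -1.34 and Rab1b highest at 1.12.

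Among the Rabs of regulated secretion none was called, Rab27a had the lowest difference, and the lead probe sets of the 4 Rab3 genes lay between -0.20 and 0.49. Of 8 genes, 5 were tested by 10 probe sets, and 1 gene was above 0 and 4 below it, with a median of -0.13. The median was negative in every alternative, from -0.27 with array weights to -0.07 without a filter. Rab27a, which docks granules at the plasma membrane, measured 7.82, 8.76 and 8.72 on the TAC arrays, against 8.72, 10.36 and 10.26 on the sham arrays. Sham 1 lay among the TAC values and the other two sham arrays lay above all of them. The difference was -1.34 ± 0.53 SE, a 2.54-fold lower level (adjusted p = 0.706 in limma), with an unadjusted 95% interval from -2.64 to -0.05. The other 3 probe sets of Rab27a were below log2 4 on all 6 arrays, so its level rests on a single probe set. Within each group the lowest value was on the array whose Gapdh gap was widest, TAC 1 and sham 1. The part of 3′ bias in the difference was not tested.

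Rab3a, the main Rab of regulated exocytosis in neurons and neuroendocrine cells, read 10.86, 10.48 and 10.98 after TAC and 10.90, 10.83 and 10.85 after sham. That probe set carries the suffix x, which marks probes similar to other transcripts. Sham arrays lay within the range of the TAC arrays, and the difference was -0.09 ± 0.24 SE (adjusted p = 0.990, limma), with a 95% interval from -0.66 to 0.48. Its other tested probe set read 6.01, 6.84 and 6.08 after TAC against 6.03, 6.58 and 6.67 after sham, a difference of -0.12 ± 0.33 SE. Rab3b measured 8.91, 9.33 and 9.10 after TAC and 8.10, 9.04 and 8.73 after sham. The groups overlapped at TAC 1 and sham 2, with a difference of 0.49 ± 0.32 SE (adjusted p = 0.901, limma).

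Rab3c, a close relative of Rab3a on secretory vesicles, had 4 tested probe sets that did not share a sign. Its lead probe set read 10.65, 12.11 and 11.60 after TAC and 10.62, 12.27 and 11.86 after sham, a difference of -0.13 ± 0.57 SE (adjusted p = 0.998, limma). The 95% interval ran from -1.51 to 1.25, and arrays 1 of both groups lay below the others. The other three differed by -0.29 ± 0.59, -0.70 ± 0.32 and 0.42 ± 0.40 SE. The one at -0.70 read 4.69, 4.77 and 4.46 after TAC and 4.74, 5.58 and 5.68 after sham, close to the filter. The one at 0.42 read 5.15, 4.07 and 4.18 after TAC and 4.56, 3.81 and 3.79 after sham, with 2 sham arrays below log2 4. Rab3d, found on granules of exocrine and endocrine cells, read 7.48, 7.16 and 7.14 after TAC against 7.51, 7.41 and 7.44 after sham (-0.20 ± 0.22 SE), and by a second probe set 4.95, 6.23 and 5.26 against 4.75, 5.76 and 6.22 (-0.10 ± 0.51 SE). In both the ranges of the groups overlapped.

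**Figure D2:**
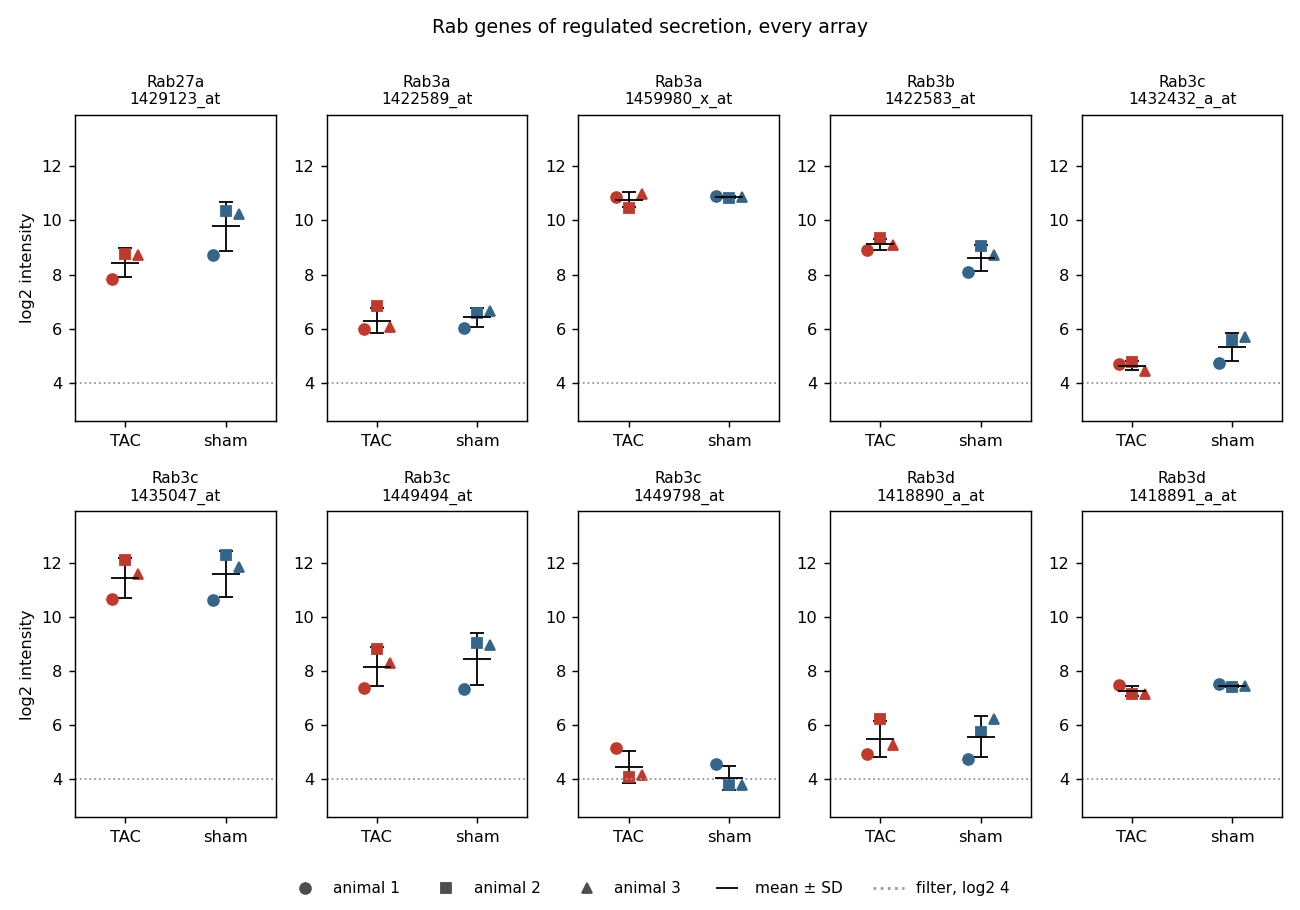
Log2 intensity (y axis) of the 10 tested probe sets of Rab3a, Rab3b, Rab3c, Rab3d and Rab27a on every array, TAC left and sham right. Symbols mark the replicate number, and the same symbol in both groups is not the same mouse. Black marks show the mean ± SD (n = 3). The ranges of the groups overlap in every panel. For Rab27a the lowest value of each group is on its array 1, at 7.82 for TAC 1 and 8.72 for sham 1.

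Rabs of the endoplasmic reticulum (ER), the Golgi apparatus and the exchange between them held both signs. Of 15 genes 13 were tested, 5 above 0 and 8 below it (median -0.29). This median stayed negative after other scalings, from -0.39 to -0.28, and was 0.20 without TAC 1 and 0.09 without sham 2. Rab2b, which acts between ER and Golgi, measured 10.18, 10.33 and 10.43 after TAC and 9.35, 9.49 and 9.68 after sham. All TAC arrays lay above all sham arrays, with a difference of 0.81 ± 0.22 SE, or 1.75-fold (adjusted p = 0.514, limma). Its other 3 tested probe sets differed by -0.31, -0.40 and -0.29, so the gene had readings of both signs. Rab1b, needed for transport out of the ER, had the highest difference of any Rab gene at 1.12 ± 0.90 SE (adjusted p = 0.944, limma). It read 5.89, 7.26 and 6.01 after TAC and 3.27, 6.22 and 6.30 after sham, with the lowest of all 6 values on sham 1. Without sham 1 the difference was 0.13, and it was -0.12 with array weights. Rab1a, its close relative, differed by -0.14 and -0.09 in 2 tested probe sets.

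Rab39b, a neuronal Rab whose human counterpart is mutated in an X-linked brain disorder, had tested probe sets of opposite sign. One probe set read 5.53, 4.84 and 4.502 after TAC and 5.94, 6.12 and 6.11 after sham, with every TAC array below every sham array and a difference of -1.10 ± 0.32 SE (adjusted p = 0.551, limma). The lead one read 6.51, 7.95 and 6.95 after TAC and 4.71, 7.33 and 7.63 after sham, a difference of 0.58 ± 0.85 SE. Its sign rested on sham 1, without which the difference was -0.34, and it was -0.44 with array weights. Rab2a, also of the ER and Golgi, had 6 tested probe sets. Its lead probe set read 10.76, 11.66 and 11.16 after TAC against 11.02, 11.89 and 11.60 after sham (-0.31 ± 0.36 SE). The probe set 1449676_at read 9.30, 7.48 and 8.27 after TAC against 8.10, 7.31 and 7.09 after sham (0.85 ± 0.53 SE), and there arrays 1 were the highest of their group. The probe set 1418621_at read 7.82, 9.28 and 8.80 after TAC against 8.24, 9.63 and 9.34 after sham (-0.43 ± 0.53 SE), and 1418622_at read 9.34, 10.98 and 10.27 after TAC against 9.53, 11.38 and 11.08 after sham (-0.46 ± 0.63 SE). On the other side of 0, 1419946_s_at read 5.83, 5.74 and 5.03 after TAC against 4.95, 5.35 and 4.98 after sham (0.44 ± 0.30 SE). By 1436477_x_at it read 5.33, 5.15 and 5.21 after TAC against 5.46, 5.15 and 5.13 after sham (-0.01 ± 0.22 SE), and the groups overlapped at all 6 probe sets. Rab6a, which returns membrane from the Golgi to the ER, lay between -0.19 and 0.09 in 3 probe sets, and the neuronal form Rab6b between -0.69 and 0.40. Rab18, a Rab of the ER and lipid droplets, differed by -0.40 ± 0.93 SE and Rab33b, of Golgi and autophagosomes, by -0.29 ± 0.46 SE. The last genes of the group were Rab30, Rab33a, Rab36 and Rab39, which lay between -0.68 and 0.22.

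In the early endosome group 6 of 7 tested genes were above 0 and 1 below it, of 10 genes in all. The median was 0.17, between 0.08 and 0.15 after other scalings, and -0.05 without TAC 2 and -0.16 without sham 1. Rab21, which moves integrins through endosomes, read 6.48, 7.13 and 6.67 after TAC and 5.25, 5.91 and 5.82 after sham by probe set 1437742_at. All TAC arrays lay above all sham arrays there, by 1.10 ± 0.30 SE, or 2.14-fold (adjusted p = 0.514, limma). Its lead probe set read 7.62, 8.92 and 8.15 after TAC and 7.60, 8.56 and 8.34 after sham, a difference of 0.06 ± 0.43 SE with overlapping groups. Rab4a, of the fast recycling route, read 6.21, 7.06 and 6.69 after TAC and 5.87, 6.002 and 6.21 after sham (0.63 ± 0.29 SE, adjusted p = 0.776 in limma), with TAC 1 at the level of sham 3. Rab22a read 4.98, 5.18 and 4.95 after TAC and 5.18, 6.79 and 5.92 after sham by 1424503_at (-0.93 ± 0.43 SE, adjusted p = 0.767 in limma), and its other three differed by -0.16, -0.58 and 0.05. The groups were barely apart at 1424503_at, with TAC 2 at 5.176 and sham 1 at 5.182. They were also apart at 1424504_at, the one at -0.16, where all values lay near the filter, from 4.34 to 4.57. Rab5a, which drives fusion of early endosomes, differed by -0.36 ± 0.36 SE and Rab5c by 0.17 ± 0.58 SE. Rab4b lay at 0.38 ± 0.45 SE and Rab31, of the Golgi and endosomes, at 0.41 ± 0.51 SE.

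Among Rabs of recycling and delivery to the cell surface, 6 of 10 tested genes were above 0 and 4 below it, of 11 genes (median 0.01). The median lay at -0.01 with arrays centred on their medians and at -0.06 after cyclic loess. It was -0.18 without TAC 2, -0.06 without TAC 3 and -0.10 without sham 1. Rab14, which acts between Golgi and endosomes, held the Rab probe set with the smallest p and also the widest disagreement between probe sets. By 1419244_a_at it read 7.85, 8.09 and 7.66 after TAC and 9.05, 9.49 and 9.47 after sham. The groups did not overlap, with a difference of -1.47 ± 0.25 SE, or 2.76-fold lower (adjusted p = 0.384, limma). The 95% interval ran from -2.08 to -0.85, with no adjustment for the choice of this probe set by its small p. The lead probe set, 1419246_s_at, read 12.09, 13.43 and 12.92 after TAC and 12.19, 12.97 and 12.84 after sham. Its groups overlapped fully, at 0.14 ± 0.42 SE with a 95% interval from -0.88 to 1.17. The suffix s marks probes shared by several transcripts and the suffix a probes shared by several transcripts of 1 gene.

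At the other 5 probe sets of Rab14 the groups overlapped, and the differences were of both signs. The probe set 1415686_at read 6.56, 8.60 and 8.14 after TAC against 7.02, 8.63 and 8.57 after sham (-0.31 ± 0.68 SE), and 1419243_at read 6.51, 7.58 and 6.48 against 6.52, 7.78 and 7.80 (-0.51 ± 0.49 SE). The probe set 1419245_at read 3.83, 6.40 and 5.04 after TAC against 4.13, 5.57 and 5.76 after sham (-0.06 ± 0.75 SE). In these 3, arrays 1 were lowest or nearly so in both groups. In the other two, arrays 1 were the highest of both groups. The probe set 1439687_at read 7.87, 5.07 and 5.73 after TAC against 6.37, 5.21 and 5.17 after sham (0.64 ± 0.78 SE), and 1441992_at read 4.98, 2.93 and 4.93 against 6.17, 4.08 and 3.98 (-0.46 ± 0.82 SE).

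**Figure D3:**
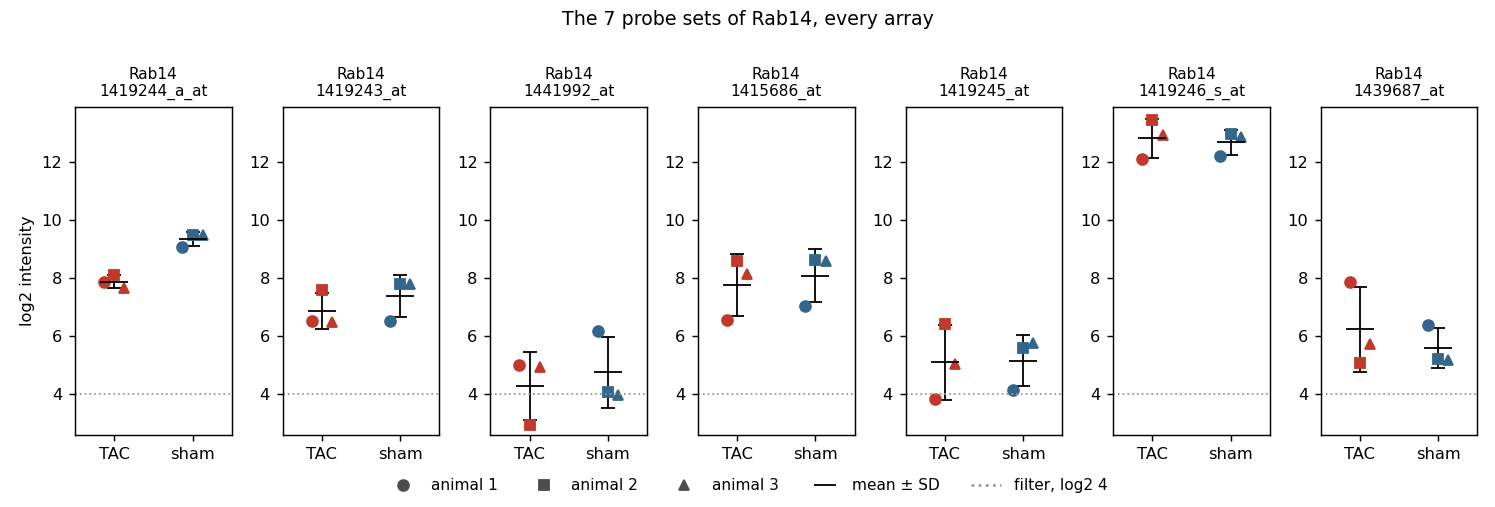
Log2 intensity (y axis) of the 7 probe sets of Rab14 on every array, TAC left and sham right. Panels run from the lowest to the highest difference. Symbols mark the replicate number, and the same symbol in both groups is not the same mouse. Black marks show the mean ± SD (n = 3). Only 1419244_a_at, at the left, separates the groups, with TAC arrays from 7.66 to 8.09 and sham arrays from 9.05 to 9.49.

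Rab11b, of the recycling endosome, differed by 0.46 ± 0.30 SE (adjusted p = 0.899, limma), with 7.91, 8.84 and 8.36 after TAC against 7.79, 7.96 and 7.97 after sham. The groups overlapped at TAC 1. A second probe set without overlap differed by 0.23 ± 0.21 SE and the last one by -0.08. Rab11a, its close relative, lay at 0.09 and 0.20. Rab12 read 3.36, 5.96 and 4.51 after TAC and 5.65, 5.91 and 5.92 after sham by 1427992_a_at (-1.21 ± 0.64 SE, adjusted p = 0.831 in limma), where TAC 2 was the highest of all 6 arrays and TAC 1 was below log2 4. Its lead probe set differed by -0.22 ± 0.59 SE. Of the Rabs that carry vesicles to the surface, Rab8a differed by -0.46 ± 0.32 and 0.25 ± 0.30 SE in 2 probe sets. Rab8b differed by 0.16 ± 0.72 and Rab35 by -0.19 ± 0.91 SE. Rab10 lay at -0.49 ± 0.30 SE in its lead probe set, and at -1.14 ± 0.99 and -0.05 ± 0.49 SE in its others. Rab13 and Rab15 were near 0, at 0.02 ± 0.21 and 0.01 ± 0.24 SE.

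In the late endosome and lysosome group 7 of 10 genes were tested, 4 above 0 and 3 below it (median 0.13, and between 0.02 and 0.11 after other scalings). It was -0.07 without TAC 2. Rab9, which returns receptors from late endosomes to the Golgi, read 9.01, 9.54 and 8.99 after TAC and 8.47, 8.80 and 8.77 after sham. Every TAC array was above every sham array, by 0.50 ± 0.26 SE, or 1.41-fold (adjusted p = 0.825, limma). Rab24, linked to autophagy, read 6.48, 7.78 and 6.93 after TAC and 5.82, 9.17 and 9.20 after sham. Sham arrays held both the lowest and the highest values, and the difference of -1.003 ± 0.98 SE had a 95% interval from -3.38 to 1.37. It was -2.12 without sham 1 and -0.43 without sham 3. A second probe set differed by -0.94 ± 0.94 SE. Rab7, the main Rab of late endosomes and lysosomes, differed by 0.13 ± 0.30 SE in its lead probe set, which read 11.14, 11.92 and 11.47 after TAC against 11.16, 11.72 and 11.24 after sham, and by -0.31 in the other. Rab34 differed by 0.34 and 0.55 in 2 probe sets, Rab42 by 0.37 ± 0.28 SE and Rab9b by -0.81 ± 0.98 SE. Rab38, a Rab of lysosome-related organelles, read between 4.20 and 4.58 on every array, near the filter.

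The last group held Rabs of the cilium and others, where 4 of 5 genes were tested and all 4 were above 0 (median 0.83, from 0.72 to 0.80 after other scalings and 0.25 without sham 1). Rab40c, whose product joins a ubiquitin ligase through its SOCS box, read 8.15, 8.84 and 8.86 after TAC and 7.18, 7.80 and 8.10 after sham. The lowest TAC array was just above the highest sham array, and the difference was 0.92 ± 0.35 SE, or 1.90-fold (adjusted p = 0.684, limma). Its relative Rab40b differed by 0.73 ± 0.72 SE, and Rab23, a regulator of Hedgehog signalling, by 1.03 ± 0.70 and 0.16 ± 0.76 SE. Rab28, a Rab of cilia and photoreceptors, had both signs. Its lead probe set differed by 0.09 ± 0.71, and the other read 4.85, 6.11 and 4.62 after TAC against 5.22, 6.35 and 6.80 after sham, a difference of -0.93 ± 0.57 SE.

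**Figure D4:**
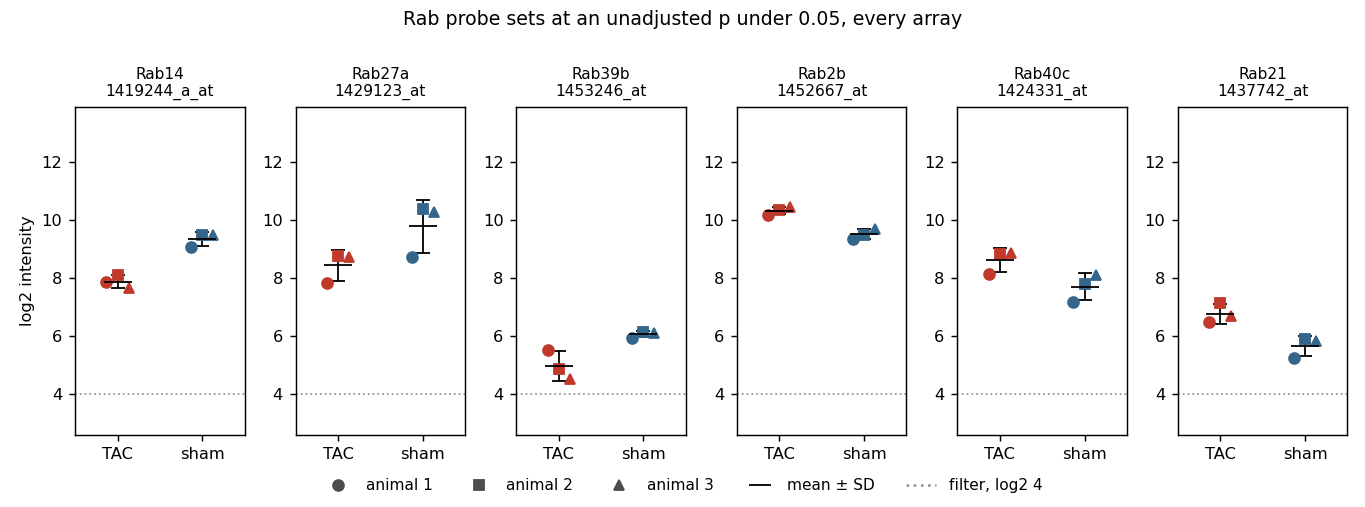
Log2 intensity (y axis) on every array for the 6 Rab probe sets with an unadjusted limma p under 0.05, TAC left and sham right. Symbols mark the replicate number, and the same symbol in both groups is not the same mouse. Black marks show the mean ± SD (n = 3). The groups are apart in 5 of the panels and overlap in that of Rab27a, where sham 1 is at 8.72 and TAC 2 at 8.76.

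Probe sets of the same Rab gene shared their direction about as often as those of other genes. Of 22 Rab genes with several tested probe sets, 12 had readings of both signs. Among 79 pairs of probe sets of the same Rab gene, 42 shared their sign, or 53.2%, against 54.8% of 8181 pairs over all genes. Pairs of 1 gene share the same arrays and are not independent. Of the 6 probe sets at an unadjusted p under 0.05, those of Rab27a and Rab40c were the only tested ones of their genes. The probe sets of Rab14, Rab21 and Rab39b were not the lead ones of their genes, and that of Rab2b was.

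The spread between animals of the same group was larger for most Rab probe sets than the difference between groups. The pooled SD within groups was 0.61 for the median Rab probe set and 0.51 for the median of all tested probe sets. The difference exceeded its own pooled SD at 26 of 87 Rab probe sets, a count that was not made over all tested probe sets. Within groups the arrays kept an order. TAC 1 was the lowest TAC array at 56 of 87 Rab probe sets, or 64.4%, against 49.5% of all tested probe sets. Sham 1 was the lowest sham array at 71, or 81.6%, against 62.2% of all. Both held together at 54 Rab probe sets, or 62.1%, against 44.1% of all tested probe sets. At 12 Rab probe sets both were the highest, which was not counted over all tested probe sets.

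The median Rab probe set deviated from its group mean by -0.46 on TAC 1, 0.46 on TAC 2 and -0.05 on TAC 3, and by -0.59 on sham 1, 0.30 on sham 2 and 0.21 on sham 3. The same medians over all tested probe sets were -0.17, 0.27 and -0.02 on the TAC arrays and -0.30, 0.16 and 0.13 on the sham arrays, the same order in smaller steps. TAC 1 and sham 1 had the widest Gapdh gap of their group, at 4.71 and 5.15. The part of 3′ bias in the levels of Rab genes was not tested. With TAC 1 and sham 1 both left out, 15 Rab probe sets had an unadjusted p under 0.05, or 17.2%, against 13.8% of all tested probe sets, and 0 passed the adjusted threshold. The median difference of Rab genes was then 0.03, as it was over all genes. The arrays left differed by group in the Gapdh gap, at 3.67 and 3.98 for TAC against 3.08 and 2.88 for sham. Group and 3′ bias cannot be told apart in that subset, nor with sham 1 alone left out.

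**Figure D5:**
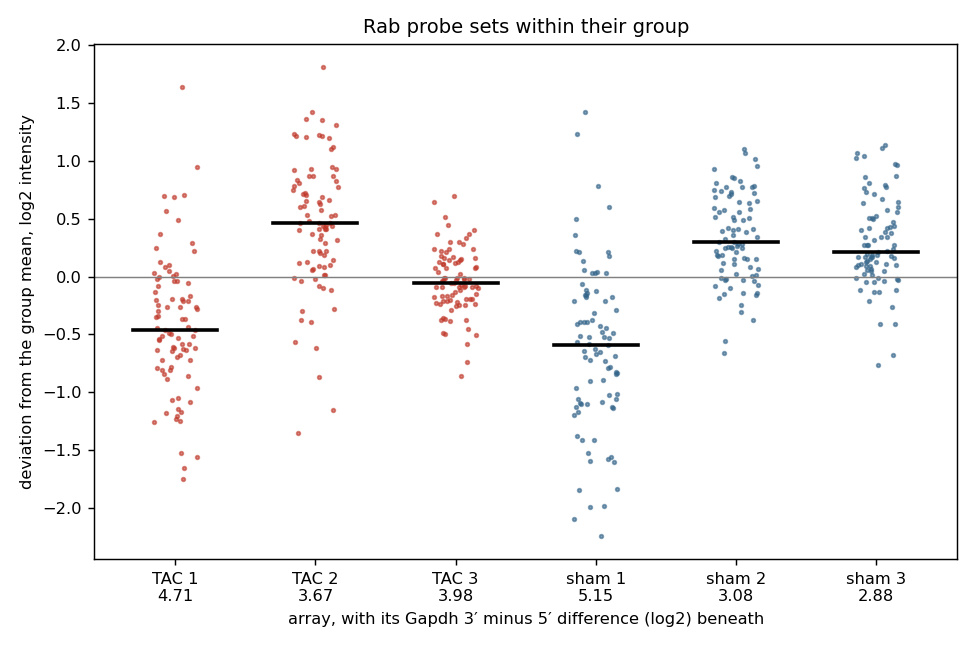
Deviation of each of the 87 tested Rab probe sets from its own group mean in log2 intensity (y axis) on each array (x axis), with each array's Gapdh 3′ minus 5′ difference under its name, points for probe sets and black bars for their median. The medians of TAC 1 (-0.46) and sham 1 (-0.59) are the lowest of their groups, and their Gapdh differences of 4.71 and 5.15 are the largest.

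Genes that regulate or read Rab proteins showed no called change either, and most differences of exchange factors were positive. Of 25 tested exchange factor genes, 22 were above 0 and 3 below it (median 0.29), against 58.7% of all tested genes above 0, with 0 past the threshold. The median stayed positive in all alternatives and was 0.04 with array weights and 0.19 after cyclic loess. Hps1 and Hps4 encode the subunits of BLOC-3, an exchange factor for Rab32 and Rab38. Hps4 read 8.48, 8.22 and 8.29 after TAC and 7.19, 6.96 and 7.31 after sham, a difference of 1.17 ± 0.23 SE (adjusted p = 0.417, limma). Hps1 read 8.70, 8.25 and 8.42 after TAC and 7.04, 7.30 and 7.65 after sham, a difference of 1.13 ± 0.27 SE (adjusted p = 0.465, limma). The groups were apart in both, each by its only tested probe set, and that of Hps1 carries the suffix x. On the lower side were Madd, which activates Rab3 and Rab27, at -0.30 ± 0.33 SE and Rin2, which activates Rab5, at -0.30 ± 0.35 SE.

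Of 28 tested GTPase activating protein genes, 20 were above 0 and 8 below it (median 0.21, 0.13 after cyclic loess, -0.11 with array weights, 0.03 without TAC 2 or sham 1), and 0 passed the threshold. Tbc1d24 read 10.82, 10.59 and 11.07 after TAC and 10.003, 9.74 and 9.76 after sham, apart by 0.99 ± 0.24 SE (adjusted p = 0.465, limma), and its other tested probe set read -0.63. Tbc1d9b differed by 0.75 ± 0.41 SE, with other readings of 0.16 and 1.27. Rab3gap1, the catalytic subunit that turns off Rab3, read 6.24, 6.91 and 6.74 after TAC and 7.28, 7.24 and 7.16 after sham. Its groups were apart by -0.60 ± 0.26 SE (adjusted p = 0.734, limma). Tbc1d2b differed by -1.37 ± 0.81 SE, with TAC 1 at 3.21, below log2 4.

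Effectors of regulated secretion had 8 tested genes of 14, with 6 above 0 and 2 below it (median 0.32, 0.21 after cyclic loess, 0.16 without TAC 2 or sham 3 and 0.13 without sham 1) and 0 past the threshold. Myrip, which links Rab27a on granules to myosin, differed by 0.51 ± 0.36 SE and Rph3a, rabphilin, which binds Rab3a and Rab27a, by 0.62 ± 0.46 SE. Sytl4, granuphilin, a Rab27a effector on dense-core granules, differed by -0.30 ± 0.84 SE and the myosin gene Myo5a by -0.24 ± 0.43 SE. Effectors of endosomes, Golgi and lysosomes had 23 tested genes, 17 above 0 and 6 below it (median 0.23, 0.13 after cyclic loess, 0.07 without TAC 2, 0.11 without sham 1, 0.37 without TAC 1 and 0.36 without sham 2 or sham 3), again with 0 past the threshold. Rabep2, which binds Rab4 and Rab5, differed by 0.9999 ± 0.34 SE and Ankfy1, an endosomal Rab5 effector, by 0.87 ± 0.31 SE, both with the groups apart (adjusted p = 0.618 and 0.655, limma). Each was read by its only tested probe set, and that of Rabep2 carries the suffix x. Ehbp1, a Rab8 and Rab10 effector, differed by -0.31 ± 0.27 SE and the golgin gene Golga5 by -0.51 ± 1.04 SE.

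The genes that carry all Rabs through their cycle were not called either. Of 7 tested, 2 were above 0 and 5 below it (median -0.17, from -0.20 to -0.09 after other scalings 0.23 without TAC 1, 0.13 without sham 2 and 0.09 without sham 3), with 0 past the threshold. Gdi2, a GDP dissociation inhibitor, read 13.03, 13.81 and 13.42 after TAC and 13.08, 13.59 and 13.50 after sham, a difference of 0.03 ± 0.30 SE. Its other 4 tested probe sets lay between -0.74 and 0.02. The prenylation genes Rabggta and Rabggtb, which encode the subunits of the enzyme that adds the lipid anchor, differed by 0.20 ± 0.63 and -0.39 ± 0.90 SE. Chm, the escort protein that presents Rabs to that enzyme, differed by -0.19 ± 0.30 SE, and 0.21 by its other probe set. Rabggta lay near the filter, at 3.40, 4.16 and 4.11 after TAC and 2.46, 3.77 and 4.85 after sham.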

How the data were processed

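Expression was measured on Affymetrix Mouse Genome 430 2.0 arrays, 1 array per animal, in 3 TAC and 3 sham mice. The deposited values are linear intensities, 1 for each probe set on each array. The submitters' processing notes list GCRMA, which corrects background by probe sequence and summarises probes, with neither version nor options. Any step after GCRMA is not stated, and the arrays do not share 1 distribution. Values were taken to log2 with no further scaling. The number of arrays limits the precision. Symbols came from the platform annotation, and the identifiers of all 59 Rab genes were found in a RefSeq gene table (GRCm38.p6), which changed 0 symbols. Coordinates are left out, since the deposited values come with no genome build. The 18188 probe sets that reached log2 4 on 3 arrays or more went into limma 3.58.1 under R 4.3.3 (functions lmFit and eBayes, no covariate, 2-sided p-values with Benjamini-Hochberg adjustment), and the procedure was tested on simulated data. The simulated arrays had independent noise without shifts of whole arrays, and changes larger than any Rab difference here. That test therefore does not show how the procedure performs on these arrays. The probe set with the highest mean stands for a gene in counts and medians.

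The members, role groups, other gene lists and naming rule were chosen with earlier results of these data known, so no list was tested. Values on every array are given for all tested probe sets of the secretion group, those at an unadjusted p under 0.05, the 6 of smallest p per direction and the 3 genes with the widest span between probe sets. In each role group the member of smallest p per direction is named, and in each regulator list 2 per direction. Others are named to account for the family. Rab1b was described after its values were seen. Alternatives were other scalings, filters, array weights, a replicate block and arrays left out.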

Additional observations from a re-analysis of the deposited data

How the results depend on the processing

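No Rab probe set passed the adjusted threshold under any alternative except array weights, where 30 of 87 did (34.5%, against 36.8% of all tested probe sets) and 43 had an unadjusted p under 0.05. Those weights were 6.11 for TAC 3 and at most 0.40 for TAC 1 and TAC 2, which leaves TAC 3 to set most of that group's mean. Sham 1 had a weight of 0.14, against 2.73 for sham 2 and 2.96 for sham 3. Values with array weights are therefore no check separate from leaving out sham 1. The count at an unadjusted p under 0.05 was 10 without a filter (7.58%, against 4.69% of all), 14 with the replicate number as a block (replicate block, 16.1% against 16.5% of all), 15 without TAC 1 and sham 1 (17.2% against 13.8%), and from 4 to 14 with single arrays left out (4.60% to 16.1%, against 3.52% to 13.4% of all), the 14 without sham 1. The count without overlap was 17 with centred arrays, quantile normalization or cyclic loess (19.5% against 14.0% to 14.9% of all), 43 without TAC 1 and sham 1 (49.4% against 48.4%), 23 without TAC 1 and sham 3 (26.4% against 30.9%), and from 11 to 31 with single arrays left out (12.6% to 35.6%, against 16.4% to 36.7%), where fewer arrays leave less room to overlap. The median difference of Rab genes ran from -0.17 to 0.33 with single arrays left out, and was -0.23 with array weights, 0.43 without TAC 1 and sham 3, and -0.07 with probe sets of a gene averaged.

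Of all 87 tested Rab probe sets, 36 kept their sign in every alternative that gave them a value and 45 with each single array left out. Of the 35 that the naming rule picks, 19 kept it, among them the 6 at an unadjusted p under 0.05. Those 6 were picked for their p in these same values, and groups that are apart keep their sign whichever array is left out. Their kept sign is therefore no separate support. Signs kept were not counted over all tested probe sets, so these counts cannot set Rab genes apart from others. The alternatives are given 1 by 1 for these 35 and for Rab1b. Array weights turned Rab2a 1419946_s_at to -0.035 and 1436477_x_at to 0.071, Rab39b 1435014_at to -0.44, Rab14 1441992_at to 0.75, Rab1b to -0.12 and Rab3a 1459980_x_at to 0.11. Quantile normalization turned Rab2a 1436477_x_at to 0.00015. Without TAC 1 and sham 1, Rab2a 1436477_x_at was 0.043, Rab39b 1435014_at -0.031 and Rab14 1419245_at 0.054. Without TAC 1 and sham 3, Rab2a 1418621_at was 0.11 and 1418622_at 0.18, Rab14 1415686_at 0.54, 1419245_at 0.87 and 1439687_at -0.39, Rab3a 1422589_at 0.15, Rab3c 1435047_at 0.41, 1449494_at 0.36 and 1449798_at -0.056, and Rab3d 1418890_a_at 0.49. With single arrays left out the ranges that crossed 0 were -0.070 to 0.094 for Rab2a 1436477_x_at, -0.34 to 1.12 for Rab39b 1435014_at, -0.84 to 0.29 for Rab14 1415686_at, -0.72 to 0.57 for 1419245_at, -0.16 to 0.51 for 1419246_s_at, -0.18 to 1.22 for 1439687_at, -0.85 to 0.25 for 1441992_at, -0.38 to 0.032 for Rab3a 1422589_at, -0.20 to 0.058 for 1459980_x_at, -0.61 to 0.27 for Rab3c 1435047_at, -0.84 to 0.10 for 1449494_at and -0.51 to 0.22 for Rab3d 1418890_a_at. The cause of these turns was not tested. The numbers of the arrays were not taken to pair them. Deviations from the group means correlated at 0.76 for arrays 1 and 0.78 for arrays 2, but at -0.22 for arrays 3, so not every array went best with its own number.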

Other observations

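Of the symbols that match the naming pattern without being Rab GTPases, Rab5if read 7.97, 9.76 and 8.70 after TAC against 7.35, 9.36 and 9.67 after sham, a difference of 0.02 ± 0.75 SE with overlapping groups. Rab3ip, which encodes rabin8, an exchange factor of Rab8, differed by 0.11 ± 0.21 and 0.30 ± 0.34 SE in 2 probe sets. Rab10os, named as an RNA opposite Rab10, read 8.58, 9.58 and 9.86 after TAC against 8.78, 9.90 and 9.82 after sham, a difference of -0.16 ± 0.47 SE. Rab26os stayed below log2 4 on every array.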
